A study of Drosophila melanogaster with 16 samples.

Results

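Cytosolic ribosomal protein genes encode the proteins of the small and large subunits of the ribosome in the cytoplasm. They were taken as every probe set whose single gene symbol in the platform annotation begins with RpL or RpS, with RpLP included in the former. This gave 37 of the 10844 genes that were read by a probe set with 1 symbol, and each of the 37 was read by 1 probe set. RpL22-like was kept apart, which left 36 genes. Of these, 13 are large subunit genes, 11 small subunit genes and 3 genes of the ribosomal stalk, together 27 subunit genes below. A further 6 (RpS5b, RpS10a, RpS19b, RpS28a, RpL10Aa and RpL37-2) are copies of genes that occur more than once in the fly genome, and 3 carry symbols that end in -like. The fly assembly, release 6, lists 92 symbols of this form, and the other 55, among them RpL22, RpS3 and RpS6, were not analysed here.

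Ribosomal proteins are needed in near equal amounts, and their genes are usually transcribed strongly and in step in growing cells. In Drosophila, loss of 1 copy of many of these genes gives the Minute phenotype of slow development and short bristles. The early embryo starts with ribosomes and ribosomal protein messages from the mother and then makes its own.

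The samples were Drosophila melanogaster embryos at stage 11, read on Affymetrix arrays. Control embryos were wild type apart from the marker described below. The gcm embryos (labelled scagcm) overexpressed gcm, the transcription factor that directs cells to glial fate in the fly. In both genotypes the neuroectoderm was marked with mCD8-GFP, a fluorescent protein anchored in the cell membrane. The arrays of sorted cells read RNA from dissociated embryos after purification with anti-mCD8 magnetic beads, and the whole arrays read RNA from embryos. The labels give the prefix sca in scagcm and otherwise name no driver of gcm or of mCD8-GFP. They do not say that replicates came from separate collections, so each p-value rests on the spread among arrays, which may be technical. The groups were sorted control with 4 arrays, sorted gcm with 3, whole control with 4 and whole gcm with 4. Sorted gcm 2 and 3 were identical in all 14010 deposited values and were counted as 1 array, written sorted gcm 2/3. Sorting and dissociation were applied together to every purified sample and to no whole embryo sample, so their effects cannot be told apart.

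Levels are log2 of the quantile-normalised intensity plus 16. A probe set at intensity 0 therefore has a level of 4, and a level of 5 is an intensity of 16, near background. The trimmed mean of the deposited intensities ran from 67.1 to 166 over the arrays, and the number of arrays limits the precision. The level of gcm was 8.07 to 8.66 on whole control 1, 2 and 4, 10.49 to 11.21 on whole gcm arrays, 11.25 to 12.07 on sorted control arrays and 13.01 to 13.13 on sorted gcm arrays. The array labelled whole control 3 went against its label, with a gcm level of 13.10 and a correlation over all probe sets of 0.931 with the sorted arrays and 0.690 with the other whole arrays. Calls and medians of the 36 genes are given with it (15 arrays) and without it (14 arrays). Fitted differences of single genes and calls in other lists are without it, unless 15 arrays or both fits are named. The ribosomal protein genes showed the same departure. Of the 36, 34 lay within the range of the sorted arrays on the array labelled whole control 3, and 31 lay below every other whole array. Their median gap to the other whole controls was -3.30 on the log2 scale, and to the sorted arrays it was 0.02. Per-array levels below are from the normalisation of 15 arrays, and the differences without whole control 3 come from a normalisation of the other 14, in which member levels moved by at most 0.06.

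Markers of the cell types were read beside the ribosomal protein genes, as sums of levels in sorted controls and in whole controls without whole control 3. The 7 neuroectoderm and neuroblast markers summed to 58.6 to 60.6 in sorted controls and 53.4 to 57.6 in whole controls. Among them wor (11.31 against 8.49), pros (10.70 against 8.29), ase and dpn were higher in sorted controls, l(1)sc (6.54 against 8.61) and SoxN were lower, and ind (5.92 against 6.29) was not called. The 4 glial markers summed to 36.4 to 38.4 against 27.9 to 29.6, the 3 mesoderm markers to 22.3 to 23.1 against 20.3 to 20.8, and the 2 tracheal markers to 18.7 to 19.1 against 14.4 to 15.5. The 6 hemocyte markers (37.0 to 46.6 against 36.7 to 39.7), the 5 germ cell markers (27.1 to 30.0 against 28.6 to 31.1) and the 5 endoderm and yolk markers (29.1 to 31.6 against 28.0 to 30.7) had sums whose ranges overlap. Such sums hide single markers that went different ways. Of the mesoderm markers 2 were called higher and 0 lower, and bap read 7.42 against 7.83. Of the hemocyte markers 2 were called higher and 1 lower. Among them vkg read 6.98 against 4.76 and crq 4.93 against 6.64. Of the germ cell markers 1 was called higher and 0 lower, and of the endoderm and yolk markers 1 each way. Markers near background, below a mean level of 5 in sorted controls, were crq, vas and GATAe. The part of these cell types in the ribosomal protein results was not tested.

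As a set, the 36 genes gave far less signal in purified cells than in whole embryos. Their summed deposited intensity was 0.900% to 1.58% of the array total on the 7 sorted arrays and 6.79% to 8.25% on the 7 whole arrays other than whole control 3. On the array labelled whole control 3 the share was 1.01%. The median level of the 36 genes was 7.95, 8.31, 7.95 and 8.06 on sorted control 1 to 4, and 8.15, 8.91 and 7.76 on sorted gcm 1, 2/3 and 4. On whole embryo arrays it stayed between 12.24 and 12.34, apart from 8.10 on the array labelled whole control 3. Sorted and whole arrays thus did not overlap in either measure once that array was set aside. These are bulk samples, so fewer cells of a type and less RNA per cell cannot be told apart.

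**Figure D1:**
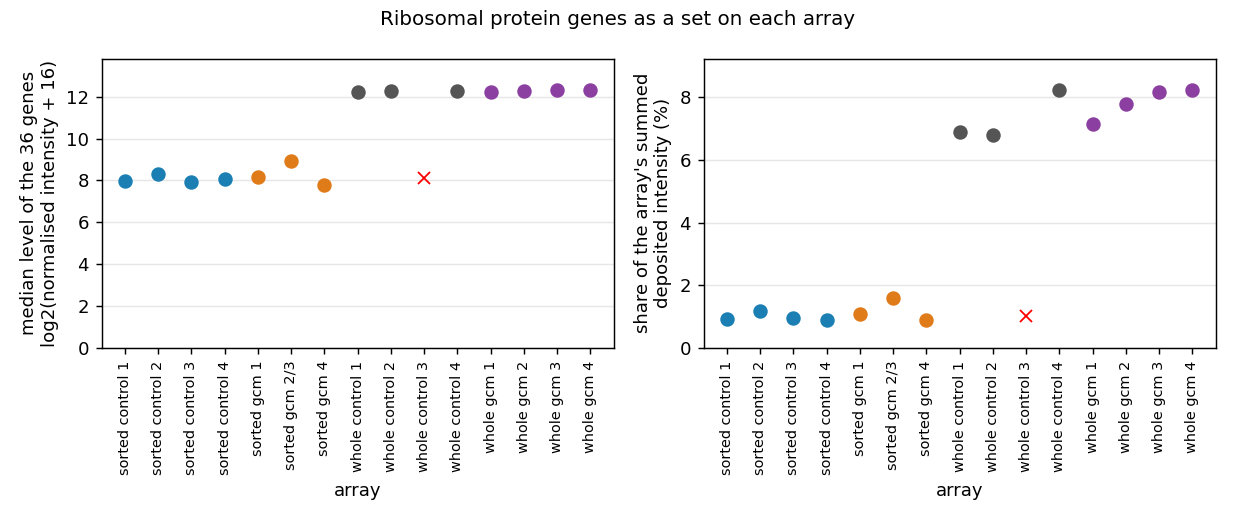
Median level of the 36 ribosomal protein genes (left, log2 of normalised intensity plus 16) and their share of the summed deposited intensity in percent (right) on each of the 15 arrays, 1 point per array. The sorted arrays sit at levels of 7.76 to 8.91 and shares of 0.900% to 1.58%, and the whole arrays at 12.24 to 12.34 and 6.79% to 8.25%, except the array labelled whole control 3 (red cross).

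In sorted controls against whole controls, 32 of the 36 genes fell and none rose without whole control 3, and the median difference was -3.49 on the log2 scale. With all 15 arrays 31 fell and none rose, and the median was -2.62. The test was limma's moderated test with Benjamini-Hochberg adjustment over 13966 probe sets, at an adjusted p of 0.05. Of all probe sets, 21.4% were called lower and 24.9% higher without whole control 3, and 13.3% lower and 12.8% higher with 15 arrays. The median difference of all 10844 genes was 0.06 and 0.03, so the ribosomal protein genes lay far below the array as a whole. Without whole control 3 the 2 groups did not overlap for 32 of the 36 genes, against 22.6% of all probe sets that were lower without overlap. With 15 arrays 8 of the 36 genes were lower without overlap, and the share over all probe sets was not taken there. Between sorted gcm cells and whole gcm embryos, a comparison that uses other arrays, 31 of 36 genes fell and 1 rose without whole control 3, with a median of -3.35. With 15 arrays 30 fell and 1 rose, with a median of -3.33. Here 20.9% of probe sets were called lower and 24.7% higher in the fit of 14 arrays, and 17.4% and 19.5% in the fit of 15. For 31 of 36 genes the gcm groups did not overlap, against 23.4% of probe sets.

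The sizes of the falls differed widely within the ribosome. Without whole control 3, 8 of the 27 subunit genes were at least 32-fold lower in sorted than in whole controls, 21 were at least 8-fold lower and 3 differed by less than 4-fold. In gcm samples the same counts were 2, 19 and 3. With 15 arrays the counts in controls were 1, 12 and 4. All folds are on the log2(intensity + 16) scale, which understates the change of genes near background. In whole embryos 14 of the 27 subunit genes in controls and 13 in gcm lay within 1 log2 unit of the highest level of any probe set, 13.42, so signal at the top of the range may be compressed there.

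**Figure D2:**
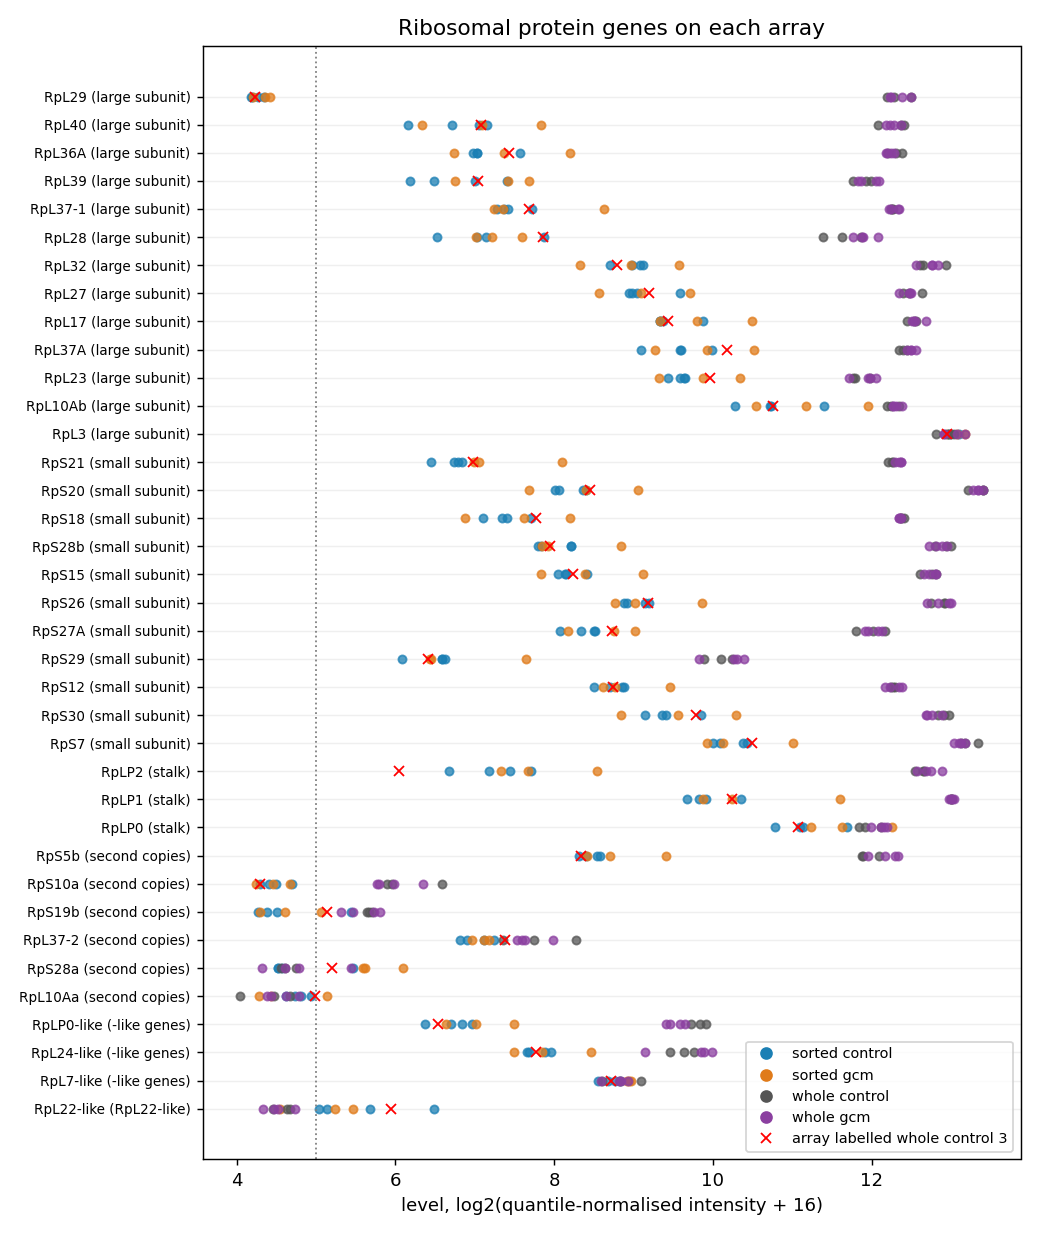
Level of each of the 37 genes (rows, grouped by role) on each of the 15 arrays, 1 point per array, coloured by group, on an axis of log2 of normalised intensity plus 16. The dotted line marks a level of 5, near background. For most subunit genes the sorted arrays lie to the left of the whole arrays without overlap, the array labelled whole control 3 (red cross) lies among the sorted arrays, and RpL3 lies near 13 on every array.

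Of the 13 large subunit genes, 12 fell in sorted controls in both fits, with a median over the 13 of -3.77 without whole control 3 and -2.78 with it. RpL29, a short basic protein of the large subunit, showed the widest gap. Its levels were 4.27, 4.34, 4.20 and 4.18 on sorted control 1 to 4, and 12.28, 12.19 and 12.49 on whole control 1, 2 and 4. They were 4.35, 4.42 and 4.21 on sorted gcm 1, 2/3 and 4, and 12.23, 12.24, 12.50 and 12.38 on whole gcm 1 to 4. Every sorted array was near background and every whole array near the top of the scale, except for 4.23 on the array labelled whole control 3. In deposited units RpL29 ran from 2.4 to 5.3 in sorted cells and from 5955.2 to 9092.6 in whole embryos other than whole control 3. The fitted difference in controls was -8.13 ± 0.13 (SE, n = 4 and 3), 280-fold lower, with an adjusted p of 5.77e-16 from limma. In gcm samples it was -8.07 ± 0.13 (SE, n = 3 and 4, limma adjusted p = 6.52e-16). The size depends on the pseudocount, with -10.42 in controls at a pseudocount of 1 and -6.32 at 64. With all 15 arrays the difference in controls was -6.05 ± 1.27 (SE, limma adjusted p = 0.00690).

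RpL40, made as a fusion with ubiquitin and cut free after translation, read 6.71, 7.05, 7.15 and 6.16 on sorted control 1 to 4 and 12.08, 12.36 and 12.41 on whole control 1, 2 and 4. On sorted gcm 1, 2/3 and 4 it read 7.09, 7.83 and 6.33, and on whole gcm 1 to 4 12.18, 12.28, 12.23 and 12.37. No sorted array came within 4 log2 units of a whole array other than whole control 3, which read 7.08. The difference was -5.55 ± 0.28 in controls (SE, limma adjusted p = 4.29e-10) and -5.22 ± 0.28 in gcm samples (SE, limma adjusted p = 9.64e-10). RpL36A and RpL39, of which RpL39 lines the exit tunnel for the growing chain, followed with -5.19 ± 0.25 and -5.16 ± 0.26 in controls (SE, limma adjusted p = 2.33e-10 and 3.10e-10).

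RpL32, the rp49 transcript that fly laboratories often use as a reference for quantitative PCR, fell with the rest. It read 9.08, 8.99, 8.70 and 9.12 on sorted control 1 to 4 and 12.65, 12.61 and 12.93 on whole control 1, 2 and 4. The difference was -3.77 ± 0.23 (SE, n = 4 and 3, limma adjusted p = 2.47e-09), 13.6-fold lower in sorted controls. In gcm samples RpL32 read 8.97, 9.57 and 8.32 on sorted gcm 1, 2/3 and 4 against 12.56 to 12.83 in whole embryos, a difference of -3.78 ± 0.23 (SE, limma adjusted p = 2.75e-09). The groups did not overlap in either genotype. Between RpL36A and RpL32 in size stood RpL37-1 (-4.84) and RpL28 (-4.51), and smaller falls were those of RpL27 (-3.38), RpL17 (-3.05), RpL37A (-2.85) and RpL23 (-2.29), all in controls without whole control 3 and all past the test in both fits and both genotypes. RpL10Ab differed by -1.50 ± 0.29 in controls (SE, limma adjusted p = 0.000403) and by -1.10 ± 0.29 in gcm samples (SE, limma adjusted p = 0.00474). In the fit of 15 arrays it was close to the threshold, with limma adjusted p of 0.0439 and 0.0491. On the deposited values, without whole control 3, the differences were -2.59 in controls and -2.02 in gcm samples.

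RpL3, which reaches the catalytic centre of the large subunit, was the large subunit gene that was not called in either comparison. It read 12.95, 13.10, 12.99 and 12.97 on sorted control 1 to 4 and 13.04, 12.97 and 12.81 on whole control 1, 2 and 4. On the sorted gcm arrays it read 12.95 to 13.17 and on the whole gcm arrays 12.91 to 13.17. Groups overlapped, and the array labelled whole control 3, at 12.95, stood with them. The difference in controls was 0.06 ± 0.18 (SE, limma adjusted p = 0.807) and in gcm samples 0.05 ± 0.18 (SE, limma adjusted p = 0.849). This reading depends on the scaling, because RpL3 was -0.74 on the deposited values (limma adjusted p = 0.0271) and -0.58 with quantile normalisation within each preparation (limma adjusted p = 0.00857) in controls. Its deposited intensities were 4423.9 to 7710.4 on sorted arrays and 9323.5 to 10995.7 on whole arrays other than whole control 3.

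**Figure D3:**
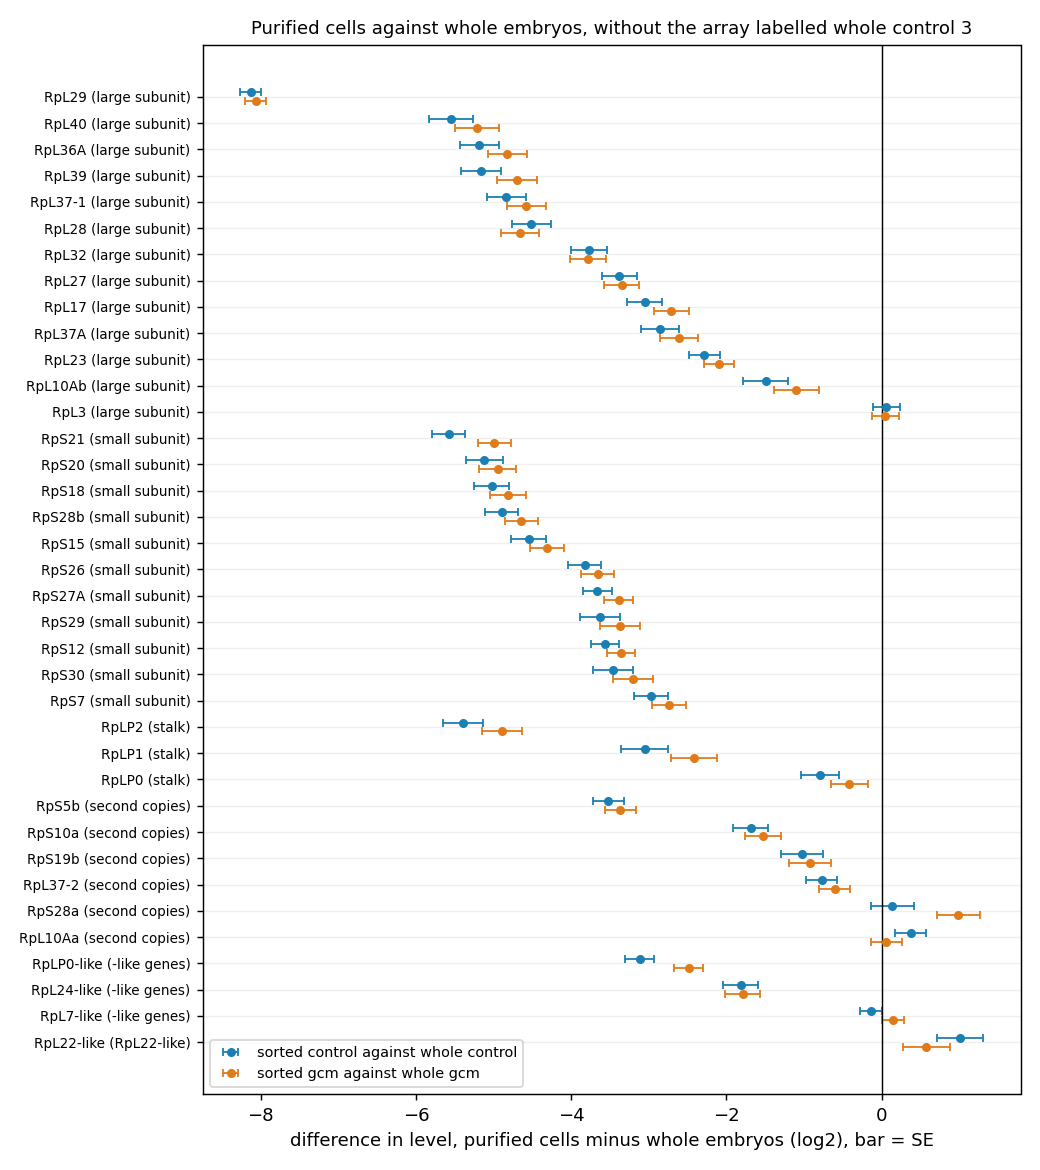
Difference in level between purified cells and whole embryos for each of the 37 genes (rows, grouped by role), in controls (blue) and in gcm samples (orange), in the fit without whole control 3. Points are the fitted log2 differences and bars their SE. The falls run from -8.13 for RpL29 to values near 0 for RpL3 and RpL7-like. RpL22-like in both genotypes (1.01 and 0.57) and RpS28a in gcm samples (0.99) lie to the right of 0. The sign for RpL3 turns with other scalings.

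All 11 small subunit genes fell in both genotypes and both fits. Without whole control 3 they ran from -5.58 to -2.97 in controls, 47.9-fold to 7.84-fold lower, and from -4.99 to -2.74 in gcm samples. RpS21, whose loss in the fly gives overgrown blood-forming organs, had the widest gap. It read 6.74, 6.84, 6.79 and 6.45 on sorted control 1 to 4 and 12.21, 12.27 and 12.26 on whole control 1, 2 and 4. On sorted gcm 1, 2/3 and 4 it read 7.05, 8.10 and 6.99, and on whole gcm 1 to 4 12.29, 12.36, 12.34 and 12.36. Whole embryo arrays differed little among themselves, sorted cells lay far lower, and sorted gcm 2/3 was the highest of them. The difference was -5.58 ± 0.21 in controls and -4.99 ± 0.21 in gcm samples (SE, limma adjusted p = 2.52e-11 and 8.56e-11).

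RpS20 read 8.01, 8.40, 8.06 and 8.37 on sorted control 1 to 4 and 13.21, 13.41 and 13.41 on whole control 1, 2 and 4, with no overlap. Its whole embryo values are at the top of the array, and the difference of -5.12 ± 0.24 (SE, limma adjusted p = 1.53e-10) may be compressed there. RpS18, a protein of the head of the small subunit, differed by -5.03 ± 0.23 (SE, limma adjusted p = 1.50e-10). RpS28b and RpS15 followed with -4.90 and -4.55. RpS26, RpS27A, RpS12, RpS30 and RpS7 differed by -3.83, -3.66, -3.56, -3.46 and -2.97. RpS27A is, like RpL40, made as a fusion with ubiquitin, and RpS12 is known in the fly for its part in competition between cells. Both therefore lay within the range of the other small subunit genes. RpS29, which binds zinc in the head of the small subunit, read 6.58, 6.59, 6.62 and 6.08 on sorted control 1 to 4 and 9.89, 10.11 and 10.25 on whole control 1, 2 and 4. The difference was -3.63 ± 0.26 (SE, limma adjusted p = 1.30e-08).

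The stalk of the large subunit, which recruits translation factors, consists of RpLP0 at its base and dimers of RpLP1 and RpLP2. Its 3 genes moved by unequal amounts. RpLP2 read 7.18, 7.71, 6.67 and 7.44 on sorted control 1 to 4 and 12.55, 12.66 and 12.65 on whole control 1, 2 and 4. The array labelled whole control 3 read 6.04, below every sorted array. The difference was -5.39 ± 0.26 (SE, limma adjusted p = 1.95e-10), 42.0-fold. RpLP1 read 9.92, 10.35, 9.82 and 9.67 on sorted controls and 12.99, 12.99 and 13.01 on whole control 1, 2 and 4. Here the difference was -3.05 ± 0.30 (SE, limma adjusted p = 4.95e-07), again with no overlap.

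RpLP0 differed least among the 3 stalk genes. It read 11.14, 11.68, 11.10 and 10.78 on sorted control 1 to 4 and 12.12, 11.91 and 11.84 on whole control 1, 2 and 4. The difference of -0.79 ± 0.24 (SE, limma adjusted p = 0.0131) passed the test without whole control 3. With 15 arrays it was -0.56 ± 0.30 (SE, limma adjusted p = 0.180). In gcm samples, where sorted gcm 2/3 read 12.26 and overlapped with whole embryos, it was -0.42 ± 0.24 (SE, limma adjusted p = 0.178). On the deposited values the difference was -2.03 in controls, and in gcm samples it was -1.45 and passed the test (limma adjusted p = 0.000661).

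Of the 6 second copies, 4 fell in sorted controls in both fits, and none rose. Near-identical copies can hybridise to each other's probes, and this was not tested. RpS5b, a copy known for its expression in the ovary, behaved like a subunit gene, at 8.40, 8.54, 8.31 and 8.58 on sorted control 1 to 4 against 11.88, 11.89 and 12.10 on whole control 1, 2 and 4. Its difference was -3.52 ± 0.20 in controls and -3.37 ± 0.20 in gcm samples (SE, limma adjusted p = 1.15e-09 and 2.18e-09). The sums of the germ cell markers overlapped between preparations, as given above, but single markers went different ways. In sorted against whole controls aub (7.28 against 6.53) and osk (5.67 against 5.66) read higher. Lower were ovo (5.63 against 6.39), vas (4.53 against 5.07) and pgc (5.81 against 6.08). The part of germ cells in the RpS5b result was not tested.

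RpS10a and RpS19b were near background in most sorted arrays and low in whole embryos. RpS10a read 4.29 to 4.70 in sorted controls and 5.96, 5.90 and 6.59 on whole control 1, 2 and 4, a difference of -1.69 ± 0.23 (SE, limma adjusted p = 1.47e-05). RpS19b read 4.38, 4.27, 4.51 and 5.44 on sorted control 1 to 4 and 5.64, 5.70 and 5.67 on whole control 1, 2 and 4, a difference of -1.03 ± 0.27 (SE, limma adjusted p = 0.00524). RpL37-2 moved far less than RpL37-1. It read 6.82 to 7.25 in sorted controls and 7.74, 7.35 and 8.27 on whole control 1, 2 and 4, a difference of -0.78 ± 0.20 (SE, limma adjusted p = 0.00496), where RpL37-1 differed by -4.84 ± 0.25. In gcm samples RpL37-2 differed by -0.61 ± 0.20 without whole control 3 (SE, limma adjusted p = 0.0227) and by -0.60 ± 0.23 with 15 arrays (SE, limma adjusted p = 0.0543). On the deposited values RpL37-2 differed by -1.47 in controls and -1.01 in gcm samples.

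RpL10Aa and RpS28a, whose partners RpL10Ab and RpS28b fell, had low levels on every array. RpL10Aa read 4.28 to 5.13 on sorted arrays and 4.05 to 4.79 on whole arrays other than whole control 3, and was not called (0.37 ± 0.20 in controls, SE, limma adjusted p = 0.137). With median centring RpL10Aa was called higher in controls (0.77 ± 0.23, SE, limma adjusted p = 0.0102). With quantile normalisation over all arrays, RpS28a was the 1 gene of the 36 that rose in a comparison of preparations. It read 5.59, 5.62 and 6.09 on sorted gcm 1, 2/3 and 4 and 5.45, 4.32, 4.61 and 4.78 on whole gcm 1 to 4. The difference in gcm samples was 0.99 ± 0.28 (SE, limma adjusted p = 0.00775), without overlap. In controls it was 0.13 ± 0.28 (SE, limma adjusted p = 0.723), with 4.53, 5.47, 4.52 and 4.57 on sorted control 1 to 4. The deposited intensities behind the rise are small, 28.0 to 50.1 in sorted gcm cells and 3.3 to 29.7 in whole gcm embryos.

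The 3 genes with symbols that end in -like are related to ribosome assembly factors in yeast rather than to parts of the finished ribosome. RpLP0-like fell by 3.12 in controls (SE 0.19, limma adjusted p = 2.54e-09), from 9.91, 9.72 and 9.84 on whole control 1, 2 and 4 to 6.97, 6.84, 6.70 and 6.37 on sorted control 1 to 4. RpL24-like fell by 1.82 (SE 0.23, limma adjusted p = 5.52e-06). RpL7-like was not called, at 8.56, 8.77, 8.83 and 8.68 on sorted control 1 to 4 and 8.83, 8.61 and 9.09 on whole control 1, 2 and 4 (-0.14 ± 0.14, SE, limma adjusted p = 0.468). On the deposited values RpL7-like differed by -0.71 in controls (limma adjusted p = 0.0152).

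RpL22-like, a paralogue of RpL22 known for its expression in the testis, went the other way. It read 5.14, 5.04, 5.68 and 6.48 on sorted control 1 to 4 and 4.45, 4.67 and 4.63 on whole control 1, 2 and 4. The array labelled whole control 3 read 5.95, within the sorted range. Without that array RpL22-like was 1.01 ± 0.30 higher in sorted controls (SE, limma adjusted p = 0.0116), with no overlap, and with 15 arrays 0.66 ± 0.35 higher (SE, limma adjusted p = 0.177). In gcm samples it read 5.46, 4.55 and 5.25 in sorted cells and 4.33 to 4.74 in whole embryos, which overlap, a difference of 0.57 ± 0.30 (SE, limma adjusted p = 0.136). With median centring it was 0.73 and was called (limma adjusted p = 0.0251). Deposited intensities were 7.3 to 50.5 on sorted arrays and 2.9 to 10.4 on whole arrays other than whole control 3, so all of these values are close to background.

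Effects of gcm on the ribosomal protein genes were asked in each preparation and compared between them. In sorted cells, none of the 36 genes was called in either fit, where 0.122% of all probe sets were called with 15 arrays and 0.773% without whole control 3. At an unadjusted p under 0.05 there were 1 and 4 of the 36, and 776 and 1482 probe sets. The median difference of the 36 genes was 0.25 in both fits, and the median of all genes was -0.01. With the replicate number as a block in the fit of 15 arrays the median of the 36 genes was -0.02 or 0.34, according to whether sorted gcm 2/3 was given number 2 or 3. The estimates were above 0 for 32 of 36 genes, with a median SE of 0.61 and 0.23 in the fits of 15 and 14 arrays.

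This small shift rests on sorted gcm 2/3, the array that stands for both deposits. Over the 27 subunit genes, sorted gcm 2/3 exceeded the mean of the sorted controls for 27, with a median of 0.85. Sorted gcm 1 did so for 21, with a median of 0.20, and sorted gcm 4 for 3, with a median of -0.21. Sorted gcm 2/3 was the highest of the 3 sorted gcm arrays for 27 of 27 subunit genes, and sorted gcm 4 the lowest for 26. Over all genes sorted gcm 2/3 was the highest of the 3 for 38.2%. Without sorted gcm 2/3 the median difference of the 36 genes was 0.01 in both fits, and without sorted gcm 4 it was 0.52 with 15 arrays and 0.53 without whole control 3. The subunit genes varied together on these arrays, with a median SD of 0.62 in sorted gcm cells against 0.26 for all genes. In sorted controls the corresponding SDs were 0.25 and 0.29, and sorted control 2 was the highest of 4 for 20 of the 27 subunit genes. The log2 ratio of the 3' to the 5' actin control probe sets was 2.19 on sorted gcm 2/3 and 1.59 to 1.77 on the other sorted arrays. For the other control transcripts sorted gcm 2/3 lay within the range of the other sorted arrays. Its ratio was 2.18 against 1.16 to 2.20 for 18S rRNA, and 0.996 against 0.885 to 1.198 for eIF-4a. For GAPDH the other sorted arrays ran from -0.80 to 0.58. The part of these ratios in the shift was not tested.

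**Figure D4:**
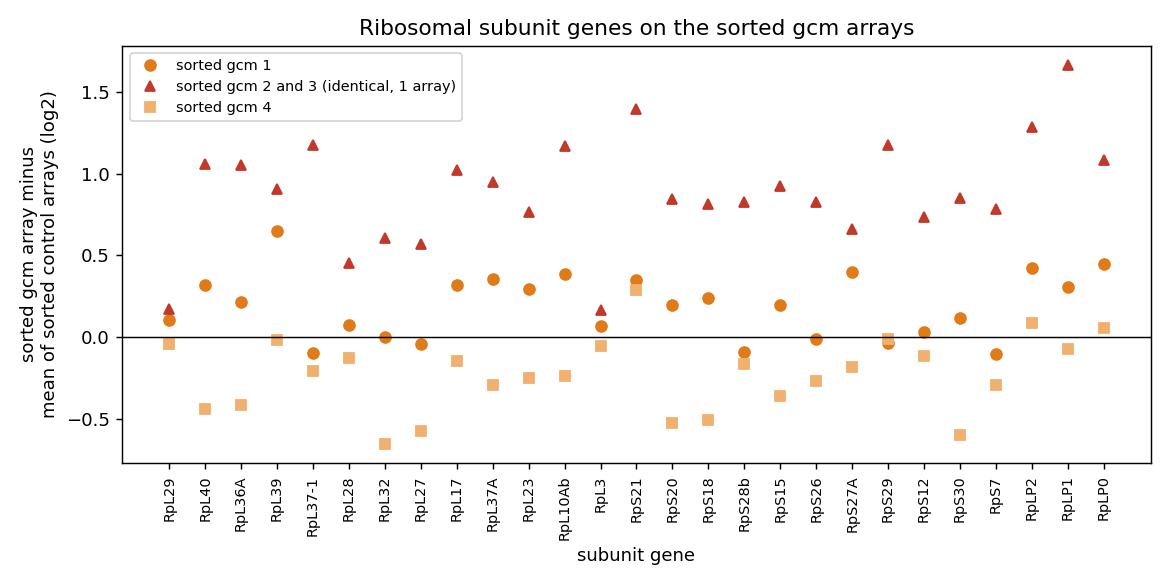
Level of each of the 27 subunit genes on sorted gcm 1, sorted gcm 2 and 3 (identical, 1 array) and sorted gcm 4, minus the mean of the 4 sorted control arrays, on the log2 scale. The triangles of sorted gcm 2/3 lie above 0 for all 27 genes (median 0.85), and the squares of sorted gcm 4 lie below 0 for all but RpS21, RpLP0 and RpLP2 (median -0.21).

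Among single genes, RpS28a had the largest estimate in sorted cells. It read 5.59, 5.62 and 6.09 on the sorted gcm arrays against 4.53, 5.47, 4.52 and 4.57 on sorted control 1 to 4, without overlap. The difference was 1.0 ± 0.29 with 15 arrays (SE, limma adjusted p = 0.40) and 1.0 ± 0.28 without whole control 3 (SE, limma adjusted p = 0.135), so it was not called. RpS28a passed the test when sorted control 2, its highest control array, was left out together with whole control 3 (1.25 ± 0.25, SE, limma adjusted p = 0.0324). The groups also did not overlap for RpS21 (0.68 ± 0.21, limma adjusted p = 0.195 without whole control 3) and RpL7-like (0.24 ± 0.14, limma adjusted p = 0.615), and neither was called. These are 3 of 36 genes without overlap in either direction, against 9.09% of all probe sets. The 3 stalk genes came next, with RpLP1 at 0.64 ± 0.30, RpLP2 at 0.60 ± 0.26 and RpLP0 at 0.54 ± 0.24 (SE, limma adjusted p = 0.473, 0.407 and 0.444), and their levels overlapped between the groups. RpL22-like read lower, by -0.51 ± 0.30 (SE, limma adjusted p = 0.613), and was not called.

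In whole embryos none of the 36 genes was called between gcm and control in either fit. Of all probe sets, 0.0573% were called with 15 arrays and 0.444% without whole control 3. None of the 36 had an unadjusted p under 0.05 in either fit, against 1560 and 1622 probe sets. Each SE here rests on 1 spread per gene shared by all 4 groups. That spread includes the sorted gcm arrays, where the median SD of the subunit genes was 0.62. With only the whole embryo arrays in the fit and without whole control 3, 1 of the 36 was under 0.05, against 1918 probe sets. None of the 36 was called there. The median difference was 0.83 with 15 arrays and 0.02 without whole control 3, so the larger value came with that array. Without it the estimates ran from -0.30 for RpLP0-like to 0.28 for RpL28, with SEs of 0.13 to 0.30. RpLP0-like read 9.65, 9.47, 9.59 and 9.41 on whole gcm 1 to 4 and 9.91, 9.72 and 9.84 on whole control 1, 2 and 4, without overlap (-0.30 ± 0.19, SE, limma adjusted p = 0.656). RpS21, at 12.29 to 12.36 on whole gcm arrays and 12.21 to 12.27 on whole control 1, 2 and 4, also did not overlap (0.09 ± 0.21, SE, limma adjusted p = 0.975). These are 2 of 36 genes, against 12.3% of all probe sets. RpL28 read 11.88, 11.76, 12.08 and 11.89 on whole gcm 1 to 4 and 11.87, 11.39 and 11.62 on whole control 1, 2 and 4, which overlap (0.28 ± 0.25, SE, limma adjusted p = 0.818). Within a group the whole embryo arrays varied little, with a median SD over the 27 subunit genes of 0.10 in controls without whole control 3 and 0.09 in gcm. Many of these levels lie near the top of the scale, where quantile normalisation gives arrays nearly equal values. Before normalisation the median deposited intensity of the 36 genes ran from 6027 to 8371 on the same arrays.

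The difference of the gcm effect between sorted cells and whole embryos was called for none of the 36 genes in either fit. Probe sets were called at 0.00716% with 15 arrays and 0.0286% without whole control 3. At an unadjusted p under 0.05 there were 1 and 2 of the 36 genes, and 877 and 1468 probe sets. The median over the 36 genes was -0.60 with 15 arrays and 0.24 without whole control 3, so its direction turned with 1 array. The largest estimates without whole control 3 were those of RpS28a (0.85 ± 0.39), RpLP1 (0.64 ± 0.43) and RpLP0-like (0.63 ± 0.27), with limma adjusted p of 0.464, 0.668 and 0.416.

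The genes of the mitochondrial ribosome shared the fall, and the lists of translation factors and of ribosome biogenesis held genes called in both directions. Of 64 genes of the mitochondrial ribosome, 61 fell and none rose in sorted controls without whole control 3, with a median of -2.19, and 53 fell with 15 arrays (median -1.63). mRpS7 (-3.60 ± 0.19), mRpS16 (-3.45 ± 0.19) and mRpL43 (-3.32 ± 0.21) had the smallest p (SE, limma adjusted p = 6.71e-10, 7.53e-10 and 3.20e-09). In gcm samples 60 of the 64 fell, with a median of -1.98. Of 44 initiation and elongation factors and their partners, 17 fell and 13 rose in controls, with a median of -0.11, where 21.4% of all probe sets were called lower and 24.9% higher. eIF1, which takes part in choosing the start codon, differed by -3.92 ± 0.21, and eEF1delta, of the elongation factor complex, by -3.57 ± 0.23 (SE, limma adjusted p = 7.36e-10 and 4.90e-09). eIF3k, a small subunit of the initiation factor eIF3, differed by -3.19 ± 0.22 (SE, limma adjusted p = 7.95e-09). With 15 arrays eIF3a, the large scaffold of the same factor, was among the 3 smallest p and rose by 1.58 ± 0.21 (SE, limma adjusted p = 0.00127).

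Of 39 genes of ribosome biogenesis, 16 fell and 8 rose in controls, with a median of -0.14. NHP2, a protein of the small nucleolar particles that modify ribosomal RNA, differed by -4.12 ± 0.26, Nph by -3.57 ± 0.16 and Fib, the methyltransferase of such particles, by -2.76 ± 0.19 (SE, limma adjusted p = 4.16e-09, 1.21e-10 and 1.07e-08). In gcm samples 15 of the 44 translation factors fell and 14 rose, and 16 of the 39 biogenesis genes fell and 13 rose. Between sorted gcm and sorted control cells, bys, which takes part in assembly of the small subunit, was the 1 gene of these 3 lists that was called. It differed by 0.72 ± 0.14 without whole control 3 (SE, limma adjusted p = 0.0268), where 0.773% of all probe sets were called. With 15 arrays bys was not called (limma adjusted p = 0.412). No gene of the 3 lists was called for gcm in whole embryos or for the difference of the gcm effect. These lists were chosen with earlier results known, and their difference from the ribosomal protein genes was not tested.

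Gene length moved with the difference between preparations. Ribosomal protein and mitochondrial ribosomal genes are short, with a median genomic length of 909.5 bp for the latter against 2385 bp over all genes. Across the 27 subunit genes Spearman's rho between length, introns included, and the difference in controls was 0.604, and in gcm samples 0.560. Across 10803 genes it was 0.355 and 0.320. These correlations are descriptions across genes that were read on the same arrays. Among genes with a mean level of 8 or more, a limit chosen after the values were seen, genes outside the set had a median difference of -2.70 below 1000 bp (53 of 66 called lower) and of -1.76 from 1000 bp to below 1500 bp (89 of 101). From 1500 bp to below 2500 bp the median was -0.54 (165 of 300 called lower), and at 2500 bp or more it was 0.75 (134 of 935). The ribosomal protein genes above the same level had medians of -5.09 (10 of 10 called lower), -3.56 (13 of 13), -3.66 (4 of 5) and -2.97 (2 of 3) in these classes. The margin between these medians and those of other genes was not tested. The limit was set on the mean of the sorted and whole levels, so genes such as RpL29 passed it only through whole embryos. These medians and counts therefore come from genes selected on the values compared, and no conclusion is drawn from them. In gcm samples the medians under the same limit were -2.21, -1.62, -0.36 and 0.76 for other genes and -4.76, -3.37, -3.39 and -2.71 for ribosomal protein genes. Without the limit the medians of other genes in gcm samples were -0.13, -0.18, -0.01 and 0.31.

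**Figure D5:**
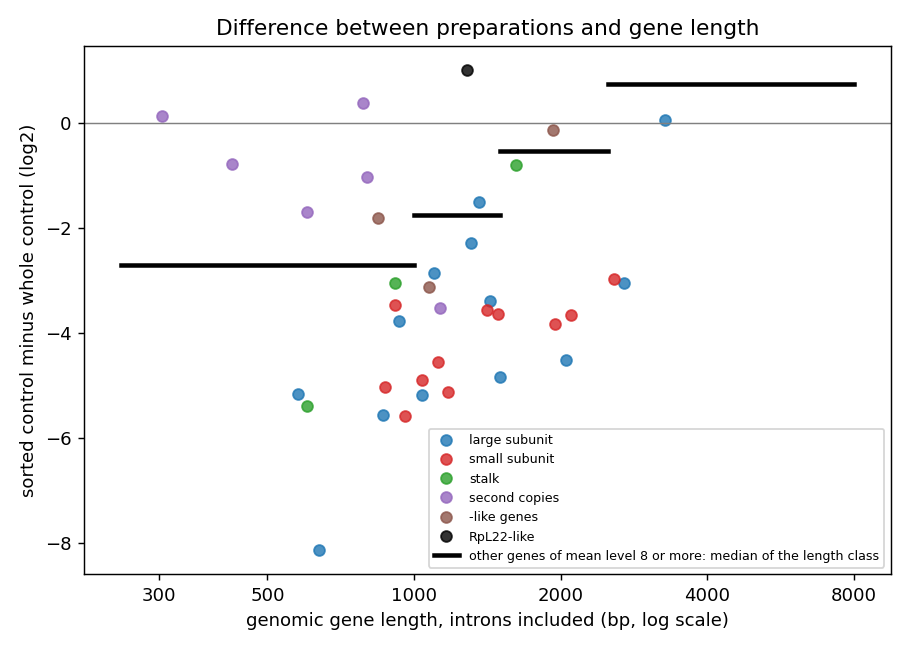
Difference between sorted and whole controls (log2, without whole control 3) against genomic gene length in bp on a log scale, 1 point per gene, coloured by role. Black bars give the median difference of other genes of mean level 8 or more in each length class. The bars rise from -2.70 to 0.75 with length. The limit selects genes on the values compared and was not applied to the points, so points and bars are not set against each other. Without the limit on level, the medians of other genes are -0.12, -0.22, -0.08 and 0.33 in the same classes.

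RNA quality, read from the 3' and 5' control probe sets, also moved with the preparation. The log2 ratio of the 3' to the 5' control probe set of actin was 1.74 ± 0.21 on sorted arrays (SD, n = 7) and 0.88 ± 0.26 on whole arrays without whole control 3 (SD, n = 7), which read 1.85. The ratio for 18S rRNA was 1.67 ± 0.42 and 0.69 ± 0.80 (SD, n = 7 each), with 1.13 on the array labelled whole control 3. The ratio for eIF-4a was 1.01 ± 0.12 and 1.10 ± 0.15 (SD, n = 7 each), and that for GAPDH was -0.18 ± 0.45 and 0.71 ± 0.42 (SD, n = 7 each). Sorted arrays thus had higher mean ratios for actin and 18S rRNA and a lower one for GAPDH, while the means for eIF-4a differed by less than the SD. The part of gene length, of RNA quality and of the steps of dissociation and purification in the low ribosomal protein signal of sorted cells was not tested.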

How the data were processed

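The authors deposited intensities on a linear scale, as the values show, with 1 value for each probe set on each array. Their summarisation and scaling: not given in the sources used here. Because trimmed means differed 2.48-fold, the 14010 probe sets were quantile normalised, 44 control probe sets were left out and log2(intensity + 16) was tested for 13966 with limma 3.58.1 in R 4.3.3 (lmFit with 1 mean per group, eBayes with trend, two-sided, Benjamini-Hochberg). No dim probe set was removed. The platform annotation gave 1 symbol for 12443 probe sets and several for 327, which were not used. All 37 members matched a gene of assembly release 6.

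Members, lists, named genes (paralogues, stalk genes, common reference genes, the largest and most significant changes) and alternatives were chosen with earlier results of these data known. Promoter sequences and motifs were not analysed here. The steps were tested on simulated data. Alternatives were other pseudocounts, scalings, a filter on dim probe sets, fewer groups in the fit, the mean of a gene's probe sets, -like genes left out, each array left out and a block for replicate number. The mean of a gene's probe sets could not change the level of a member, because each member has 1 probe set. For whole gcm and whole control without whole control 3, residuals of same-numbered arrays correlated at 0.202 to 0.343. Arrays with different numbers correlated at -0.287 to 0.290. The overlap of these ranges rests on whole gcm 3 with whole control 4 (0.290), and the next highest was 0.029. Pairing by number was therefore not settled by the data, and the labels do not state it. In the other comparisons at least 1 same-numbered pair was at 0.1 or below.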

Additional observations from a re-analysis of the deposited data

Results flagged for a closer look

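Within each group of 4 arrays, levels were tested for 1 array far from the rest by Dixon's gap ratio, which by chance picks out about 1 in 20 groups. Whole control 3 accounted for most of the cases. It was lowest of the 4 whole controls for RpL10Ab at 10.76, RpL17 at 9.44, RpL23 at 9.96, RpL24-like at 7.77, RpL27 at 9.19, RpL28 at 7.86, RpL29 at 4.23, RpL32 at 8.80, RpL36A at 7.43 and RpL37-1 at 7.69. It was likewise lowest for RpL37A at 10.18, RpL39 at 7.04, RpL40 at 7.08, RpLP0-like at 6.53, RpLP1 at 10.24, RpLP2 at 6.04, RpS12 at 8.74, RpS15 at 8.24, RpS18 at 7.77 and RpS19b at 5.14. The same held for RpS20 at 8.45, RpS21 at 6.98, RpS26 at 9.19, RpS27A at 8.73, RpS28b at 7.95, RpS29 at 6.41, RpS30 at 9.78, RpS5b at 8.34 and RpS7 at 10.50. The median level of the 36 genes on that array, 8.10, also stood apart, and RpL22-like, at 5.95, was highest there.

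Among sorted controls, sorted control 2 stood highest for RpL17 at 9.87, RpL27 at 9.59, RpL36A at 7.57 and RpS28a at 5.47, and sorted control 4 stood lowest for RpS29 at 6.08. Among whole gcm embryos, whole gcm 1 stood lowest for RpL24-like at 9.15.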

How the results depend on the processing

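Without whole control 3, the median difference of the 36 genes was -4.24 in controls and -3.84 in gcm samples on unnormalised intensities, -3.82 and -3.72 after centring arrays on their medians, and -4.09 and -3.97 with quantile normalisation within each preparation. The median of all probe sets was -0.16 and 0.03, 0.27 and 0.15, and -0.05 and -0.05 in the same order. RpL3 reversed to -0.74 in controls on the deposited values, and to -0.58 in controls and -0.54 in gcm samples with quantile normalisation within each preparation. With 15 arrays and only the arrays compared in the fit, limma called 0 of the 36 genes and 0 of all probe sets in controls, with 31 and 4295 at an unadjusted p under 0.05. Leaving out whole control 3 moved the whole embryo gcm median from 0.83 to 0.02 and turned the difference of the gcm effect from -0.60 to 0.24.

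Leaving out each other array, the calls ranged from 25 to 31 in controls and 29 to 31 in gcm samples with 15 arrays. The lowest count, 25, came without whole control 1 and also without whole control 4. In the fit without whole control 3 they ranged from 31 to 32 in both, with RpLP0 in controls lost without whole control 1, and from 0 to 1 for gcm in sorted cells, the 1 being RpS28a without sorted control 2. Medians ranged from -3.60 to -3.40 in controls and -3.62 to -3.14 in gcm samples, and the difference of the gcm effect ranged from -0.05 (without sorted gcm 2/3) to 0.48. With the replicate number as a block, and the array deposited under both numbers taken as 2 or as 3, 32 genes were called in each comparison of preparations without whole control 3, none for gcm in whole embryos, and the median in controls was -3.49 or -3.56. With 15 arrays the block turned the median for gcm in sorted cells from 0.25 to -0.02 with that array as 2. The block changed no count of ribosomal protein calls by more than 1.5 times. Low signal limits RpS10a, RpS19b, RpS28a, RpL10Aa and RpL22-like.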
